A study of Mus musculus with 2 samples.

Results

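The outer arm dynein chains are the heavy and intermediate chains of the motor that sits on the outer side of the microtubule doublets in beating cilia and sperm tails. They were taken as 7 genes, the heavy chains Dnah5, Dnah8, Dnah9, Dnah11 and Dnah17 and the intermediate chains Dnaic1 and Dnaic2. Every probe for mouse transcripts that carries one of these names, or the older form Dnahc, or whose transcript accession belongs to one of the genes, was included. This gave 17 of the 41174 probes and 7 of the 27565 genes on the array. RNA came from the lung lobes of 1 embryo heterozygous and 1 embryo homozygous for the Foxj1lacZ allele at E16.5, male litter mates on an Sv129/CD-1 hybrid background. Both carry at least 1 mutant Foxj1 allele, and no wild-type lung is on the array. Of each RNA 100 ng went through one round of amplification. Cy3 marked the heterozygous lung and Cy5 the homozygous lung, both on the same oligonucleotide array with no dye swap, so genotype, animal and dye cannot be told apart. With 1 lung per genotype there is no replicate check and no p-value, and the single array limits the precision.

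Outer arm dyneins slide neighbouring doublets past each other and set the beat frequency of the cilium. Each arm is built from heavy chains, which hold the ATP-driven motor, and from intermediate and light chains, which join the arm to the doublet. Of the heavy chains, Dnah5, Dnah9 and Dnah11 are known from airway cilia, and Dnah8 and Dnah17 are best known from sperm flagella. Loss of DNAH5, DNAH11, DNAI1 or DNAI2 is a known cause of primary ciliary dyskinesia, and mouse Dnah11 is the gene of the left-right mutant iv. The series asks which genes act downstream of Foxj1, a forkhead transcription factor that drives motile ciliogenesis, in the fetal airway.

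Probes are single strands of 60 bases, and their place in the gene differed between members. Sequences are shown for the probes that gave the results and for some at background, since Dnah5, Dnah8 and Dnah9 were measured by only part of their probes. Only the first 30 bases are given for probes at or near the 3′ end of a gene and for a Dnah9 probe designed on a cDNA clone, whose place in the transcript is not known here. The probe that carries the Dnah8 result, well above background in both channels, lies at chr17:30602125-30602184 (mm8, plus strand), and the Dnah5 probe below it, above background in neither, at chr15:28415080-28415139 (mm8, plus strand). Over the 17 bases that end in TAA, 14 are identical between them, and the capitals mark this TAA.
Dnah8, A_51_P326631: tgtgtgacatcaagTAAgttcatctctatc
Dnah5, A_51_P175027: ctctgtgatgtcaagTAAcagaaacatatg

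A further 5 probes that passed the background flag in at least 1 channel are those below, again with their first 30 bases. They lie on mm8 at chr15:28416330-28416389 (Dnah5, plus strand), chr11:65647637-65647696 and chr11:65975600-65975659 (Dnah9, both minus strand), chr12:118322217-118322276 (Dnah11, minus strand) and chr4:41826635-41826694 (Dnaic1, plus strand).
Dnah5, A_52_P485891: taggtctgattactagctgtagtttctttt
Dnah9, A_51_P416308: aagtgggtggtgggtgatagattattatga
Dnah9, A_51_P360338: cagcctccattcccagcagctgcagacttt
Dnah11, A_51_P240476: catggcttatcttgtatccctaagacttgg
Dnaic1, A_51_P331424: aaacctgagagtatggcccagaccctgctc

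Probes of Dnah5, Dnah8 and Dnah9 on RefSeq transcripts and the gene's strand, at least 50 kb upstream of the most 3′ probe of their gene, with a reading frame free of stop codons, are shown whole, because they let the same gene be read far from its 3′ end. The Dnah5 probe, at chr15:28332486-28332545 (mm8, plus strand), was well above background in both channels. The Dnah8 probe, at chr17:30468340-30468399 (plus strand), and the Dnah9 probes, at chr11:65821933-65821992 and chr11:65933609-65933668 (minus strand), were so in neither.
Dnah5, A_52_P548463: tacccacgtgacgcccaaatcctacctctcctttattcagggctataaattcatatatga
Dnah8, A_52_P106811: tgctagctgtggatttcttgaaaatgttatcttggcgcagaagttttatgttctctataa
Dnah9, A_52_P188874: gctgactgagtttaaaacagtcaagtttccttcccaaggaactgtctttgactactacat
Dnah9, A_52_P124488: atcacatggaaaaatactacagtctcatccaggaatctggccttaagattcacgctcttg

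No member probe shared a run of 16 or more bases with a probe of another gene on the array.

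Of the 17 probes, 6 were well above background in both channels, 1 in the heterozygous channel only and 10 in neither, by the flag of the scanner software. These 7 probes measured 5 of the 7 genes, Dnah5, Dnah8, Dnah9, Dnah11 and Dnaic1. Dnah17 and Dnaic2 had no probe above background in either lung and have no ratio here. Over the whole array the flag was set for 69.0% of mouse spots in Cy3 and 75.6% in Cy5, and 21149 genes were measured. Ratios are log2 of homozygous over heterozygous after background correction and normalization. Each is followed by ± the error that the scanner software gives for its own log2 ratio of the same probes. This error was not computed for the ratios used here, and for dim probes the ratios used here can lie far from the software's. It also does not cover differences between animals. A gene takes the median of its measured probes. The median SD between probes of a gene was 0.16 over 7149 genes with several measured probes.

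**Figure D1:**
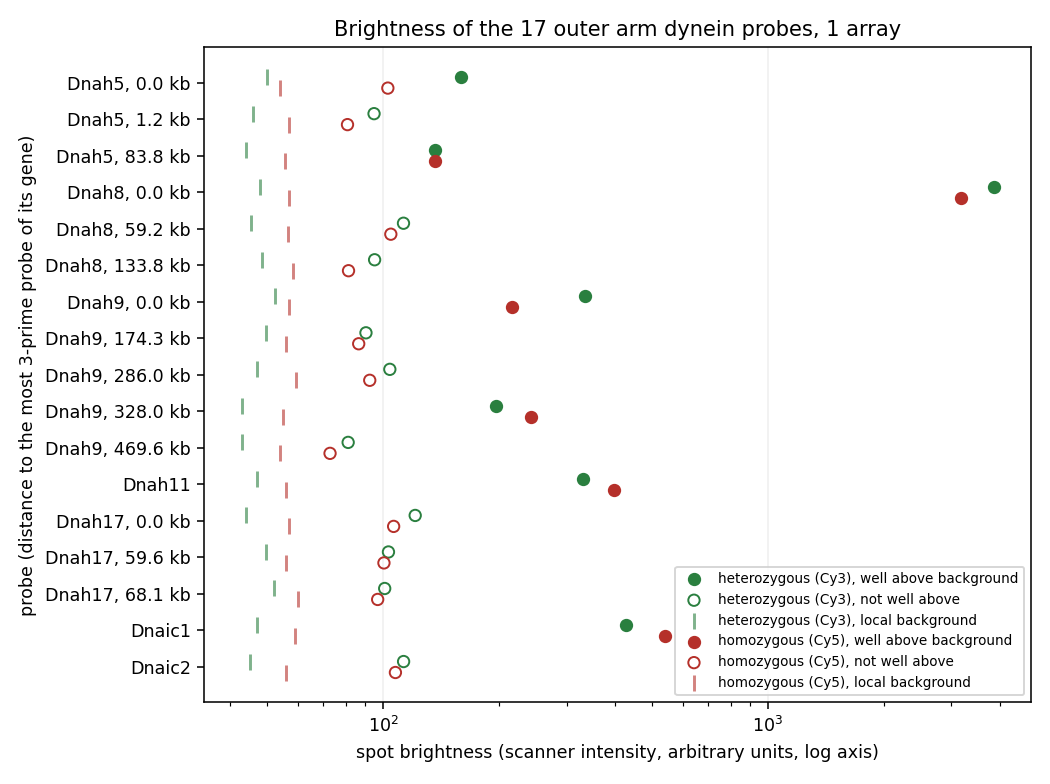
Mean spot brightness of the 17 probes (scanner intensity in arbitrary units, log axis) in the heterozygous and homozygous channels, with the local background as ticks; filled points are well above background and labels give the distance to the most 3′ probe of the gene. The most 3′ probe of Dnah8 stands alone at 3858 and 3169, while its other probes lie at 113.0 or below.

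All 5 measured chains had ratios below 0, from −1.28 for Dnah8 to −0.35 for Dnah11, with a median of −0.42. This median is the value of Dnah5, which takes in a probe above background in the heterozygous channel only. With probes required to be well above background in both channels, Dnah5 stood at −0.12 and the members' median at −0.38. Dnah8 was the single member past 2-fold, lower in the homozygous lung, and no member was 2-fold higher. Over all 21149 measured genes, 398 (1.88%) were at least 2-fold lower, 122 (0.577%) at least 2-fold higher and 10675 (50.5%) below 0, around a median of −0.0029. The split of 398 lower to 122 higher became 303 to 721 with median centring, 1144 to 592 when the software's ratio was used, 1140 to 457 with the series matrix and 774 to 221 with an offset of 0. In whole lobes, fewer ciliated cells and less RNA per ciliated cell cannot be told apart.

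Among the heavy chains, Dnah8 had the lowest ratio. Its measured probe gave a mean signal of 3858 over a local background of 48.0 in the heterozygous lung and of 3169 over 57.0 in the homozygous one. Normalized log2 levels were 12.41 and 11.12, and the ratio of −1.28 ± 0.24 makes the homozygous level 2.43-fold lower. This is the 189th lowest ratio of the 21149 genes. The other Dnah8 probes, 59.2 and 133.8 kb upstream, were well above background in neither channel. Their signals were 113.0 and 95.1 in the heterozygous lung and 104.7 and 81.3 in the homozygous one. The nearer of them was designed on a cDNA filed as a short form of the gene. The Dnah8 value therefore rests on 1 of 3 probes, the one at the 3′ end.

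Dnah9, the heavy chain of the outer part of the airway cilium, was read by 5 probes that did not give the same value. The most 3′ probe had signals of 335.5 (heterozygous) and 216.1 (homozygous), log2 levels of 8.53 and 7.38, and a ratio of −1.15 ± 0.26, or 2.22-fold lower. A probe 328.0 kb upstream, designed on a retina cDNA clone, had signals of 196.3 and 241.9, levels of 7.69 and 7.61, and a ratio of −0.08 ± 0.23. These ratios differ by 1.07, more than their combined scanner error of 0.35. The probes at 174.3 and 286.0 kb, on predicted transcripts, were above background in neither channel. The fifth, at 469.6 kb, lies on the strand opposite to the gene and was not above background either. Taken by the median rule, Dnah9 stood at −0.61 ± 0.24, or 1.53-fold lower, and it passes the 2-fold size only through the 3′ probe.

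Dnah5, the heavy chain present along the whole airway cilium, was dim. Its upstream probe, 83.8 kb from the most 3′ one, had signals of 136.4 and 136.3, log2 levels of 6.96 and 6.84, and a ratio of −0.12 ± 0.33. The most 3′ probe read 159.5 in the heterozygous lung and 102.9 in the homozygous one, where it was not well above background. For it the ratio was −0.72 ± 0.41, or 1.64-fold lower, which is an uncertain value and no firm bound. Its homozygous log2 level of 6.42 lay just above 6.32, the lowest homozygous level of any probe well above background. The software's own log2 ratio for this probe was −2.18 ± 0.41. The third probe, 1.2 kb away, was above background in neither channel. The ratios of the measured probes, −0.72 and −0.12, differ by 0.59, against a combined scanner error of 0.53, and their median is −0.42 ± 0.37.

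Dnah11, a heavy chain of the proximal airway cilium and of the embryonic node, had 1 probe. Its signals were 331.5 and 397.7, its normalized log2 levels 8.60 and 8.25, and its ratio −0.35 ± 0.21, or 1.27-fold lower. The raw homozygous signal is the higher one and the normalized level the lower one, since 69.9% of spots were brighter in the homozygous channel before normalization, which balances the channels. Dnah17, a sperm flagellum heavy chain, stayed at background in all 3 probes, which lie on mm8 between 117839426 and 117907548 on chromosome 11, on a predicted transcript. They read 121.2, 103.3 and 101.0 in the heterozygous lung and 106.5, 100.5 and 96.8 in the homozygous one, and neither lung can be set above the other for this gene.

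The intermediate chains form the base of the arm and bind the heavy chain tails. Dnaic1 had 1 probe with signals of 428.9 and 540.6, log2 levels of 9.04 and 8.66, and a ratio of −0.38 ± 0.21, or 1.30-fold lower. Dnaic2 also had 1 probe, at chr11:114570081-114570140 (mm8, plus strand), designed on a clone from adult corpus striatum. With 113.1 and 107.7 it was above background in neither channel. The chains therefore cannot be compared with each other here.

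**Figure D2:**
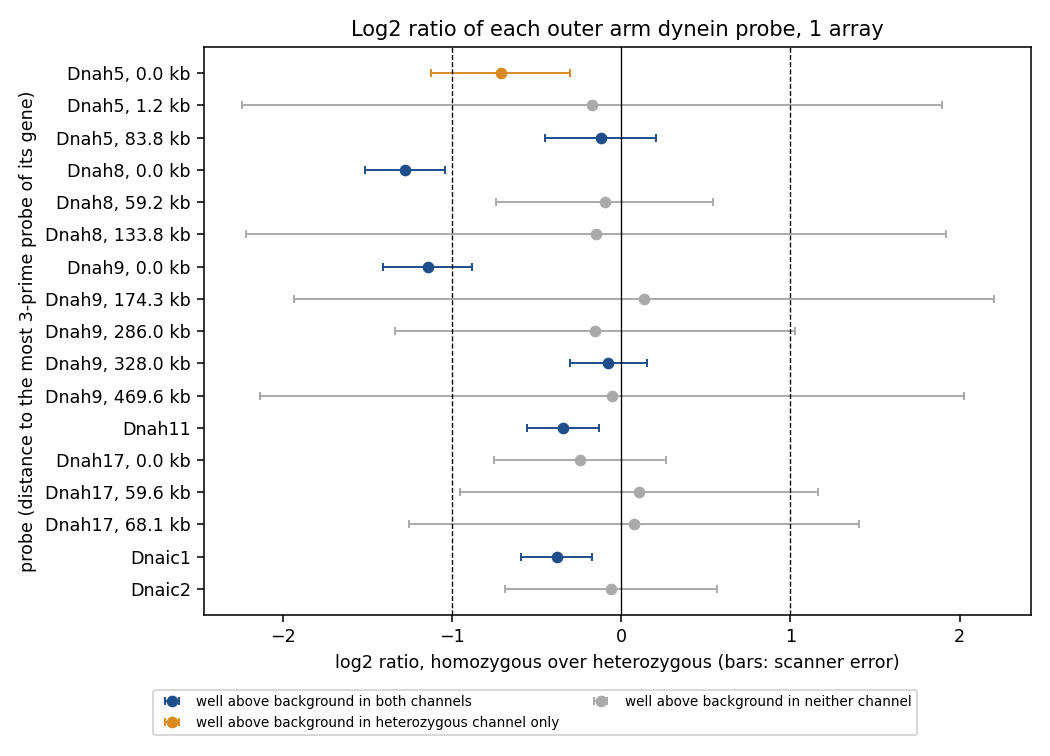
Log2 ratio of homozygous over heterozygous for each of the 17 probes, with the scanner software's error as bars and dashed lines at 2-fold; colours show in which channels a probe was well above background. The most 3′ probes of Dnah8 and Dnah9 lie beyond −1, and grey probes have wide errors.

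In the order of gene ratios Dnah8 came first, followed by Dnah9, Dnah5, Dnaic1 and Dnah11. Dnah8 and Dnah9 differed by 0.67, more than their combined scanner error of 0.34. The steps after that were 0.19, 0.04 and 0.04, against combined errors of 0.44, 0.43 and 0.30, so the order of the last 4 genes is not resolved by this array. The first place of Dnah8 also depends on the processing. With the brightest probe Dnah8 stood at −1.28 and Dnah9 at −1.15, and with median centring Dnah8 stood at −0.71 and Dnah5 at −0.68. Without the filter on dim probes Dnaic1 (−0.38), Dnah11 (−0.35) and Dnah5 (−0.17) lay below Dnah8 (−0.15).

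The partners of these chains within the outer arm are the light chains, which bind the heavy and intermediate chains, and the docking complex, which fixes the arm to the doublet. Of 9 listed light and thioredoxin chains, 8 were measured, 6 were below 0 and 1 was at least 2-fold lower, with a median of −0.17. That one was Dynlrb2, a roadblock light chain, at −2.80 ± 0.33 and levels of 13.49 and 10.69. Dynlt1b, a Tctex-type light chain also used by cytoplasmic dynein, was highest at 0.56 ± 0.21. Its near-identical copies can share the probe, so it is not separate from them. The Dynll, roadblock and other Tctex-type chains listed, Dynlrb2 among them, are also shared with cytoplasmic dynein, so this list is not particular to the outer arm. Of the listed genes outside those families, Dnal1 was at −0.05 ± 0.21, Dnal4 at −0.20 ± 0.20 and Nme8 at background. Of 7 docking complex genes, 6 had probes and 4 were measured. All 4 were below 0 and none was at least 2-fold lower, around a median of −0.38. Ttc25, which places the docking complex on the doublet, was lowest at −0.66 ± 0.30, and Ccdc103 was highest at −0.31 ± 0.21.

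Genes listed as factors that assemble dynein arms in the cytoplasm had a median of −0.35 over 16 measured of 18. Of these, 10 were below 0 and 3 at least 2-fold lower. Those 3 were Dnajb13 at −1.73 ± 0.36, Zmynd10 at −1.28 ± 0.24 and Lrrc6 at −1.02 ± 0.29, and Cfap300 was highest at 0.19 ± 0.21. Dnajb13 is known as a radial spoke protein of the axoneme, so it counts here by the list and not as an assembly factor. Inner arm dynein chains, which shape the bend of the cilium, had a median of −0.31 over 13 of 14 genes, with 10 below 0 and 2 at least 2-fold lower. These were Dnali1, a light intermediate chain, at −2.23 ± 0.37 and the heavy chain Dnah12 at −1.06 ± 0.30. Dnah7c stood highest at 0.23 ± 0.29. The inner arm count was 6 and the median −0.88 with the software's ratio and with the series matrix, which share their signals. The count was 4 at offset 0 and 1 without the filter. The median was −0.63 with the brightest probe and −0.45 with both channels required to be above background. Of the listed assembly factors 5, and of the docking complex 1, were at least 2-fold lower at offset 0, with the software's ratio and with the series matrix. The share of all measured genes at least 2-fold lower also changed. It was 1.88% as reported, 5.41% with the software's ratio, 5.39% with the series matrix, 3.66% at offset 0 and 1.35% without the filter. The remaining list holds cytoplasmic dynein and dynactin, which carry cargo along microtubules, and chains of dynein-2, the retrograde motor of intraflagellar transport within cilia, such as Dync2h1. It had a median of −0.07 over 15 genes, 9 of them below 0 and none past 2-fold, from Dync2h1 (−0.41 ± 0.21) to Dctn6 (0.24 ± 0.21). Under median centring, with all genes at 0.22, the medians of the light chain, assembly factor and cytoplasmic lists moved above 0, to 0.42, 0.06 and 0.54, and those of the docking complex and inner arm lists were −0.33 and −0.54.

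**Figure D3:**
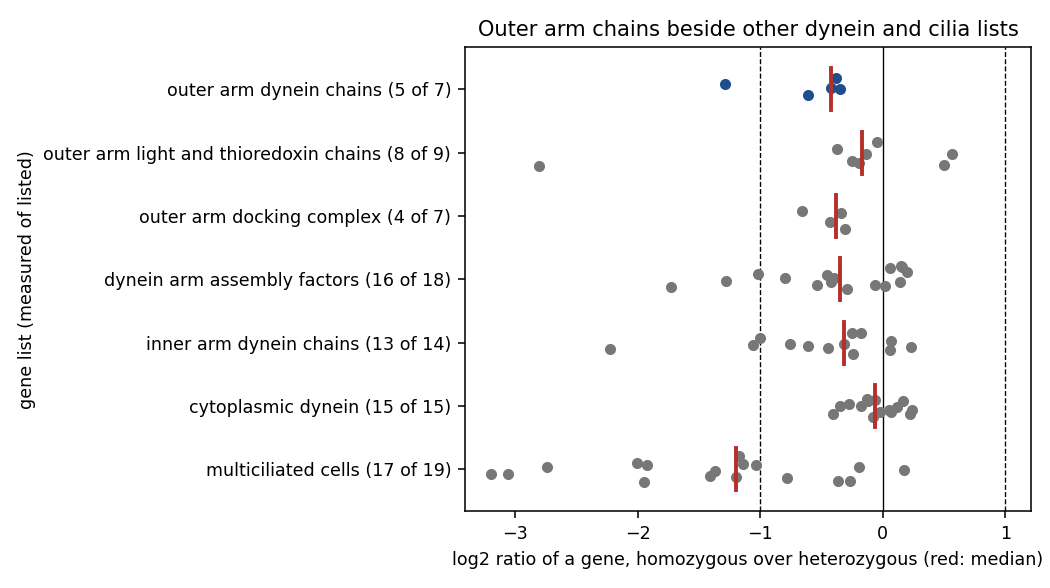
Log2 ratio of each measured gene in the outer arm chains, 5 other dynein lists and the multiciliated cell markers, with the list median in red and dashed lines at 2-fold. The outer arm chains have a median of −0.42, cytoplasmic dynein −0.07 and the multiciliated markers −1.20.

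Among the genes of these dynein and assembly lists measured in both channels, those nearest to Dnah8 in ratio were Zmynd10 (a difference of 0.0054), Dnah12 (0.22), Lrrc6 (0.27), Dnajb13 (0.44) and Dnaaf1 (0.48). Nearest to the members' median were Dnaaf4, Ccdc151, Dync2h1, Cfap298 and Wdr63, all within 0.03. Likeness here is the absolute difference of 1 ratio on 1 array, smaller than the scanner error for 8 of these 10 genes.

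Markers of multiciliated cells, the airway cells that carry motile cilia, also had low ratios. Of 17 measured, 16 were below 0 and 12 at least 2-fold lower, with a median of −1.20. Foxj1, which is counted in these numbers, was at −1.92 ± 0.30, with log2 levels of 9.53 and 7.61. It is the mutated gene itself, so its ratio is tied to the genotype and is no separate reading of these cells. The lowest marker was Ccdc153 at −3.20 ± 0.46 and the highest the transcription factor Rfx2 at 0.17 ± 0.24. The summed level of the list was 14.84 in the heterozygous and 13.48 in the homozygous channel on the log2 scale. The count was 7 and the median −0.92 with median centring, where 1.43% of all measured genes were at least 2-fold lower. The Cdhr3 probe was at background.

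Markers of some other cells in the lobes had low ratios too. Club and goblet cell genes were below 0 in 11 of 11, with 5 at least 2-fold lower, a median of −0.87 and summed levels of 17.76 and 16.43. They ran from Scgb3a1 (−3.19 ± 0.38) to Muc5ac (−0.05 ± 0.24), and Bpifa1 was at background. With median centring 2 of them were at least 2-fold lower, around a median of −0.35. Cardiac and striated muscle genes were below 0 in 12 of 12, with 7 at least 2-fold lower, a median of −1.47 and summed levels of 15.65 and 14.25, from Myl7 (−3.52 ± 0.39) to Actc1 (−0.07 ± 0.20). Genes of epithelia in general, all 13 of them measured, had a median of −0.07, from Krt19 (−0.58 ± 0.21) to Epcam (0.37 ± 0.21), with summed levels of 17.66 and 17.43. Smooth muscle genes had a median of 0.21 over 8, from Myocd (−0.11 ± 0.24) to Cnn1 (0.52 ± 0.21). The median of alveolar type II genes was −0.55, from Sftpb (−1.72) to Lyz2 (0.38), while their summed level was 17.44 in the heterozygous and 17.60 in the homozygous lung, where Sftpc, the brightest of them, stood at 0.33 ± 0.21. Of the alveolar type II genes 7 of 10 were below 0 and 3 at least 2-fold lower. With median centring their median was −0.25 and the count again 3. Neuroendocrine genes had a median of −0.37, from Grp (−1.78) to Syp (0.06), and summed levels of 13.27 and 12.76. Of them 2 were at least 2-fold lower, and 1 with median centring. The general epithelium median turned to 0.52 with median centring. The lung marker Nkx2-1 was well above background in both channels. The part of the cell makeup of these 2 lungs in the outer arm ratios was not tested.

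The stretch upstream of the start sites was read for known ciliary motifs, since 5 members lay below 0 together. Promoters of all 7 members were found in the RefSeq table on GRCm38.p6, and the 250 bases before each start were searched on both strands, as for all 32851 promoters listed. RFX factors, partners of Foxj1, bind the X-box, a near-palindrome. One spelling of it, GTTGC and GGNAAC with a pair of any bases between, was chosen after the sequences had been read. It was found in 3 of 7 members, Dnaic1, Dnaic2 and Dnah9, and in 0.387% of all promoters. Because the spelling was chosen in that order, these shares cannot be read as an enrichment. The 30 bases around each match are shown 5′ to 3′ on the gene's strand, with the match in capitals. The windows lie at chr4:41569764-41569793 (Dnaic1, plus strand), chr11:114727378-114727407 (Dnaic2, plus strand) and chr11:66168612-66168641 (Dnah9, minus strand, with the motif read on the opposite strand).
Dnaic1: ggtgcctgtcgGTTGCTGGGTAACcgcgtc
Dnaic2: cggccaggGTTGCTAGGCAACtggtaaact
Dnah9: ttccaccaGTTTCCCAGCAACaacgacgcg

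The matches begin 19 bases (Dnaic1), 33 bases (Dnaic2) and 82 bases (Dnah9) before the start site. A second spelling, GTTNCC and GGNAAC with the same gap, was in no member and in 0.374% of all promoters. The half-site GTTGCC was in Dnaic2 only, inside the longer match, and in 10.4% of all promoters. Of the forkhead spellings, TGTTTAC was in the Dnah17 promoter and in 3.17% of all, and TGTTTG was in no member and in 5255 of the 32851. Dnah8, with the lowest ratio, matched none of these spellings in its 250 bases, which lie at chr17:30626686-30626935 (GRCm38.p6, plus strand). Its sequence is given whole as the promoter of the member that passed 2-fold.
Dnah8: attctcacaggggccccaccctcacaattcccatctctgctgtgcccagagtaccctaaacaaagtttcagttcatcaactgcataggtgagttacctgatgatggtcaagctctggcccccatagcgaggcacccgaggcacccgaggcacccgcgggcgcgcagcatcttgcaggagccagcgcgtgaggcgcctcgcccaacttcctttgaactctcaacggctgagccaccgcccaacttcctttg

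These matches are letters in a window. Dnaic2, with a match, was not measured, and Dnaic1 and Dnah9 stood at −0.38 and −0.61. A link between the matches and the ratios was not tested.

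The ratios of the 5 measured chains kept their sign under all 9 alternative ways of processing, and their sizes did not. Settings that change the rule for several measured probes could not move Dnah8, Dnah11 or Dnaic1, which have 1 measured probe each. Dnah8 stood at −1.30 at offset 0, with the software's ratio and with the series matrix. It was less than 2-fold lower with median centring (−0.71) and with no filter on dim probes (−0.15), where the median takes in its probes at background. Dnah9 ranged from −1.15 to −0.08 and passed 2-fold with its brightest probe only. Dnah5 ranged from −1.25 to −0.12 and passed 2-fold with the scanner software's ratio and with the series matrix. Dnaic1 ranged from −0.43 to −0.07 and Dnah11 from −0.40 to −0.12, and neither passed 2-fold in any setting. Median centring raised the median of all genes by 0.22, and relative to that Dnah8 stood at −0.93, Dnah5 at −0.90, Dnah9 at −0.78, Dnah11 at −0.34 and Dnaic1 at −0.29.

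**Figure D4:**
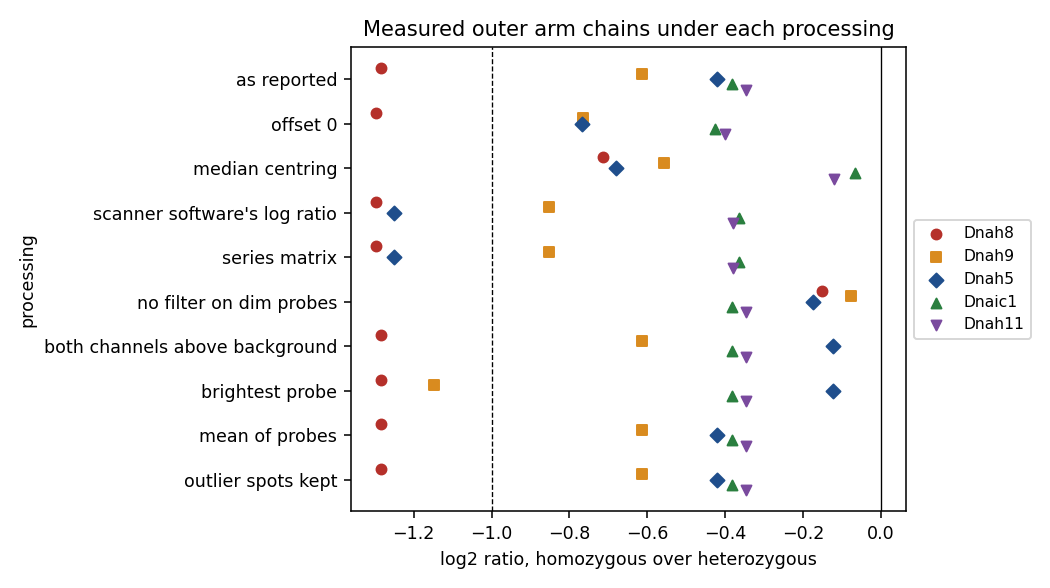
Log2 ratio of the 5 measured chains under the reported processing and 9 alternatives, with a dashed line at 2-fold lower. Dnah11 and Dnaic1 stay between −0.43 and −0.07, while Dnah8 moves to −0.71 with median centring and to −0.15 without the filter, and Dnah9 and Dnah5 reach −1.15 and −1.25.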

How the data were processed

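The deposited scanner output of 1 array, filed under both samples with identical content, gives intensity for each spot and its surroundings in both channels. Per the submitters' processing notes they come from Agilent Feature Extraction 9.5.3.1. Per the file headers, the software's log10 ratio is red over green after detrending, dye normalization with a LOWESS smoothing factor of 0.25 and surrogates for dim spots, and probe coordinates are on mm8. The authors' series matrix holds the processed intensity of each channel times 1.68 with a floor of 15 (medians 139.8 heterozygous, 138.8 homozygous), as found by comparison. The reason for the factor is unknown.

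Mean signals were corrected by normexp (offset 50) and loess-normalized, giving control spots weight 0, in limma 3.58.1 (R 4.3.3, the data.table package, version 1.17.8). The normalization was tested on simulated data, with equal numbers of changes up and down set only in brighter spots. That test does not cover dim probes. The offset pulls dim ratios towards 0. The 169 outlier spots were left out, and 0 spots were saturated. A probe was measured if the software flagged over a 0.5 share of its spots as well above background, in at least 1 channel. Python 3.11.15, numpy 2.4.6, pandas 2.3.3 and matplotlib 3.10.9 did the rest. Of 41174 probes, 24375 were named by accession, 6301 by symbol, 2431 by synonym and 35 by description in RefSeq's gene list (GRCm38.p6), and 8032 kept the file's name. Promoter sequences are from RefSeq.

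With 1 sample per group no test was run, and called means at least 2-fold. Members and gene lists were chosen with earlier results of these data known, and naming by description and the update of list symbols were added after the files had been read. Named are all members, Foxj1, pathway genes past 2-fold, the ends of each list and the 5 nearest in ratio to the lowest member and to the median. Dnal1, Dnal4, Nme8, a few markers and neighbouring genes are named besides. Alternatives varied the offset, normalization, source of values, filter, probe rule and outlier spots.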

Additional observations from a re-analysis of the deposited data

How the results depend on the processing

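Of the 7 outer arm chains, 1 was at least 2-fold lower as reported. This count was 2 with the brightest probe, the series matrix or the ratio as the software gave it, and 0 with median centring or no filter on dim probes. The share of all genes at least 2-fold lower in these settings was 2.20%, 5.39%, 5.41%, 1.43% and 1.35%, in that order. The members' median of −0.42 became −0.77 at offset 0, −0.85 from the software's ratio and from the series matrix alike, and −0.15 with dim probes let in, where 7 genes enter. Genes at least 2-fold lower or higher numbered 520 as reported, 995 at offset 0, 1024 with median centring, 1597 from the series matrix and 1736 from the software's ratio. Of the values of these 3 summary results under the alternatives, 13 moved and 14 stayed within the scanner error or 1.5 times the count. Of the values for single genes and gene lists, 40 moved and 248 stayed, among them values that the alternative could not change. The cause was not tested. No paired analysis was possible because each genotype has 1 lung, which also leaves no replicate to leave out. Signal over background limits these chains: Dnah5, Dnah17 and Dnaic2 lay within 3.19 times the local background at every probe.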

Other observations

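Near neighbours of the member probes on the array did not share one direction. Dnah11's probe ends 0.1 kb from a probe of Cdca7l on the opposite strand, which stood at 0.39 ± 0.21 while Dnah11 stood at −0.35. Enho, on the opposite strand 0.2 kb from the Dnaic1 probe, was at −0.11 ± 0.20 with Dnaic1 at −0.38. Pgs1, whose probe lies within the span of the Dnah17 probes on the opposite strand, was at −0.22 ± 0.20. A probe of Glp1r, 57.4 kb beyond the bright Dnah8 probe on the same strand, passed the background flag in the homozygous lung alone, at signals of 116.8 and 117.6. Zkscan6, 2.3 kb from the span of the Dnah9 probes, was at −0.07 ± 0.21. Rpl38, 81.7 kb from the Dnaic2 probe on the same strand, was more than 2-fold higher at 1.19 ± 0.22, while Dnaic2 was not measured.

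Base composition of the 250 bases before the start differed among members. The share of G and C was 68.4% for Dnaic1, 59.2% for Dnah8, 58.8% for Dnaic2, 51.2% for Dnah17, 48.4% for Dnah9, 46.0% for Dnah11 and 41.2% for Dnah5, beside a median of 52.4% over all 32851 promoters. CpG pairs numbered 24 in Dnaic1, 14 in Dnaic2, 13 in Dnah8, 8 in Dnah9, 4 in Dnah11, 4 in Dnah5 and 3 in Dnah17, with a median of 6 over all. These are given as a description.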
